A study of Homo sapiens with 6 samples.

Results

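*TMEM144* and the 9 measured transporter genes of the SLC35A and SLC35B subfamilies (*SLC35A1* to *SLC35A5* and *SLC35B1* to *SLC35B4*) were compared between large physaliferous and small non-vacuolated cells of MUG-Chor1. This cell line was established from a single sacrococcygeal chordoma, a bone tumor of the axial skeleton that resembles the notochord. The 10 genes were chosen by gene symbol and each is represented by 1 probe set, out of 18404 genes with a probe set of a single symbol. Whenever a gene had several such probe sets, the brightest over all arrays was kept. This choice did not arise for any of the 10 genes.
All cells came from untreated cultures in the same medium with fetal bovine serum and were detached with trypsin. Groups of 20 large, heavily vacuolated cells or 20 small cells without vacuoles were picked under the microscope, so the phenotypes are defined by morphology only. Cells with an intermediate degree of vacuolization were not analysed here. The methods describe picking by micromanipulation, whereas the labels also mention cytocentrifugation onto slides. The RNA of each pool was amplified to cDNA and hybridized to 1 Affymetrix Human Gene ST array, giving 3 arrays of large cells (pools 2, 3 and 4) and 3 arrays of small cells (pools 5, 6 and 7). The methods describe picking in quadruplicate, and 3 pools of each phenotype are analysed here. Whether the pools go back to separate cultures is not stated, and the p-values therefore cover no more than the spread among these pools.

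Most members of the SLC35 family sit in the membranes of the Golgi apparatus and the endoplasmic reticulum. They carry nucleotide sugars, the activated building blocks of glycans, from the cytosol into the lumen, where glycosyltransferases attach the sugars to proteins and lipids, and most of them exchange their cargo for a nucleotide monophosphate. Some members carry PAPS, the sulfate donor for proteoglycans, and chordoma, like the notochord, is known for a matrix rich in such proteoglycans. *TMEM144* codes for a multi-pass membrane protein of the same superfamily of transporters with no established cargo, and RefSeq lists SLC35G7 as its synonym.

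Values are log2 expression after robust multi-array averaging, so a difference of 1 is a doubling. The signal of a probe set depends on its probes, and levels are therefore compared between pools of the same gene and not between genes. An expression floor of log2(100), that is 6.64, was used to mark signal near background. Of the 10 genes, 6 were above this floor in all 6 arrays and 9 in at least 2 arrays, the exception being *SLC35A1*. The array medians lay between 6.64 and 6.68 in large and between 6.73 and 6.76 in small cells, and over all genes the log2 fold change had a median of -0.11. Of all genes 33.6% were higher and 66.4% were lower in large cells, which is the background for the counts given here.

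*TMEM144* and *SLC35A1*, the CMP-sialic acid transporter of the Golgi apparatus, were the members in which each large pool exceeded all small pools. The other 8 genes overlapped between the phenotypes. Over all genes 5.48% had all large pools above all small pools and 21.6% had them below, 27% together. No member had all large pools below all small pools. At an unadjusted p under 0.05 were 2 of the 10 members, both higher in large cells, against 4.33% of all genes higher and 10.5% lower at that limit (14.8% together). That split depended on the scaling, since 797 genes were higher and 1934 lower as deposited, and 1207 higher and 718 lower once each array was centred on its median. The study had selected *TMEM144* on these very arrays, so its difference is no independent evidence, and among the remaining 9 members 1 was at that limit. By limma with Benjamini-Hochberg adjustment 0 of 18404 genes passed the thresholds of the methods (adjusted p under 0.05, and log2 fold change beyond 1 in either direction; background 0%), and 2731 genes had an unadjusted p under 0.05. None of the members passed, with adjusted p from limma between 0.143 and 0.915.

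For reference, the windows of 300 bases that run from upstream of the RefSeq start to just past it are shown for these 2 genes, because they are the members whose groups did not overlap. They were taken from RefSeq on GRCh38.p14, chr4:158210236-158210535 for *TMEM144* and chr6:87472724-87473023 for *SLC35A1*, both on the + strand and written from 5′ to 3′. Capitals mark a match to the CCAAT box on the opposite strand.
TMEM144: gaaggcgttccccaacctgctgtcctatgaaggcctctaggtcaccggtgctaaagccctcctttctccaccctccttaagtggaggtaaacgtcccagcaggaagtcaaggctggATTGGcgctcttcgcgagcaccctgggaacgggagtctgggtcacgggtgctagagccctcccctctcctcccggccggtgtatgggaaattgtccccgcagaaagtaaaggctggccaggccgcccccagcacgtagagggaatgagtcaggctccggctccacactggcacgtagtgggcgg
SLC35A1: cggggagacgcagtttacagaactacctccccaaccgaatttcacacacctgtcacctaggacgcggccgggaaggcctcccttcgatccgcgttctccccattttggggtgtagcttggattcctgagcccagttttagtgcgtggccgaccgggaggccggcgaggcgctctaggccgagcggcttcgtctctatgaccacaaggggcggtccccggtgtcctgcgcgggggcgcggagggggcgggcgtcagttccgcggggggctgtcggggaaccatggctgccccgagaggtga
The G and C content was 62% in the window of *TMEM144* and 66.7% in that of *SLC35A1*. On both strands 3 motifs were searched, the CCAAT box (CCAAT), the E-box (CACGTG) and the Golgi apparatus stress response element (ACGTGGC). The E-box and the Golgi element have ACGTG in common, so matches to both can overlap. Neither window held an E-box or the Golgi element, and the CCAAT letters were found in that of *TMEM144* and not in that of *SLC35A1*. Among 16 windows of the 10 genes, 4 held CCAAT, 3 held CACGTG and 1 held ACGTGGC. Of all 35116 RefSeq windows of this length 34.6% held CCAAT, 7.26% CACGTG and 3.22% ACGTGGC. These matches are letters only and say nothing of binding.

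*TMEM144* had log2 expression values of 7.34, 7.13 and 7.11 in large pools 2, 3 and 4. In small pools 5, 6 and 7 it had 5.56, 5.81 and 5.86. The groups were separated by 1.25, which is several times the SD within either of them. The means were 7.19 ± 0.13 (SD, n = 3 pools) and 5.74 ± 0.16 (SD, n = 3 pools). This is a log2 fold change of 1.45 with a standard error (SE) of 0.13 (95% confidence interval 1.14 to 1.76), or 2.74-fold. All 3 large pools were above the expression floor and all 3 small pools below it, hence the size of the difference is against signal near background. In pooled cells, fewer expressing cells and less RNA per cell cannot be told apart. By unadjusted p (2.34e-05 from limma) *TMEM144* ranked 3 of 18404 genes (adjusted p = 0.143 from limma, the smallest adjusted value reached by any gene), and its log2 fold change was above that of 99.5% of genes. These ranks describe a gene that had been picked for this difference. By RT-qPCR on amplified MUG-Chor1 cDNA the study found *TMEM144* lower in large cells, the opposite direction. It relates this to the exon covered by its assay. In another chordoma cell line it reports no differential expression of *TMEM144* between the phenotypes. With 3 pools against 3, an exact two-sided permutation test has 0.1 as its smallest possible p.
The spread of *TMEM144* was ordinary for these arrays, since 36.4% of genes had a smaller SD in large pools and 52.4% in small pools. Its neighbours on chromosome 4, *GASK1B* with a log2 fold change of -0.08 (unadjusted p = 0.61 from limma) and *RXFP1* with 0.18 (unadjusted p = 0.29 from limma), were not called, and no annotated gene overlaps it.

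**Figure D1:**
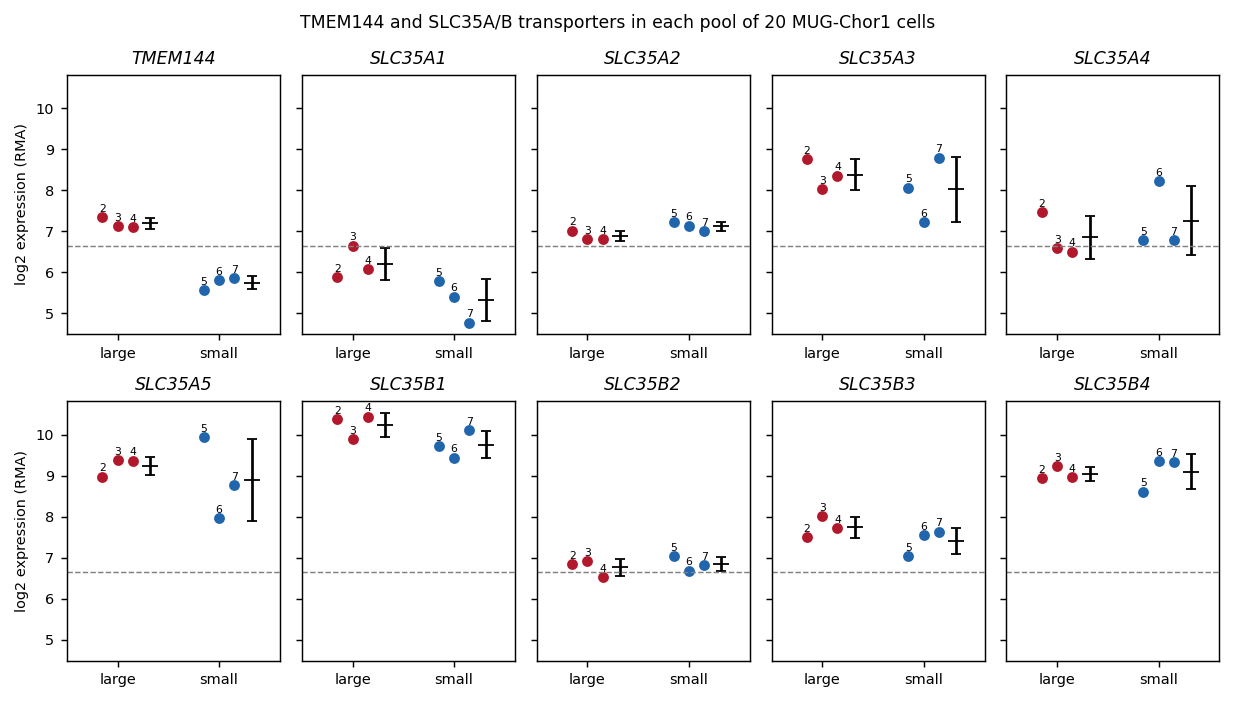
Log2 expression (vertical axis, same scale in all panels) of each gene in each pool of 20 large (red) or 20 small (blue) MUG-Chor1 cells. Points are pools with their number, black bars show the mean and SD (n = 3 pools), and a dashed line marks the floor of 6.64; *TMEM144* and *SLC35A1* are the genes in which all red points lie above all blue points.

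The 5 genes whose profile lay closest to that of *TMEM144* over the 6 arrays were *PPP2CB*, *UGCG*, *CYLD*, *SPART* and *ZNF484*. Likeness was measured as the root mean square difference of the values after centring each gene on its own mean, among 11693 genes above the floor in at least 2 arrays. The difference was 0.09 for *PPP2CB*, which encodes a PP2A phosphatase catalytic subunit and was also selected by the study on these arrays, and 0.18 for *UGCG*, the glucosylceramide synthase. It was 0.20 for *CYLD*, a deubiquitinating enzyme, 0.22 for *SPART*, which codes for spartin, and 0.22 for the zinc finger gene *ZNF484*. All 5 genes were higher in every large pool, with log2 fold changes of 1.09 for *SPART* to 1.53 for *ZNF484*, as the choice by likeness required. In small cells *UGCG*, *CYLD* and *ZNF484* were, like *TMEM144*, below the expression floor in all 3 pools. Among the transporters themselves the closest were *SLC35B1* and *SLC35A1*, both with a difference of 0.55, and the most distant was *SLC35A4* with 1.06.

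*SLC35A1* supplies CMP-sialic acid for the sialyltransferases of the Golgi apparatus. It had 5.89, 6.65 and 6.08 in large pools 2, 3 and 4 and 5.79, 5.401 and 4.77 in small pools 5, 6 and 7. The lowest large pool was only 0.10 above the highest small pool, and just 1 of the 6 values, that of large pool 3, reached the expression floor. The means were 6.21 ± 0.40 (SD, n = 3 pools) and 5.32 ± 0.51 (SD, n = 3 pools), hence a difference of 0.89 on the log2 scale with a standard error of 0.31 (95% confidence interval 0.13 to 1.65). The unadjusted p from limma was 0.029 and the adjusted p was 0.32. Without large pool 3 the log2 fold change was 0.67 (unadjusted p = 0.0909 from limma) and without small pool 7 it was 0.61 (unadjusted p = 0.0695 from limma). Without large pool 4 or small pool 6 it was 0.95 and 0.93, with unadjusted p of 0.0524 and 0.0542 from limma.
Enzymes that make CMP-sialic acid were not called higher in large cells. *GNE*, the key enzyme of sialic acid synthesis, had 6.54, 5.85 and 5.94 in large pools and 6.59, 6.50 and 7.21 in small pools, a log2 fold change of -0.66 (SE 0.27, adjusted p = 0.34 from limma). Its groups overlapped, and only small pool 7 was above the expression floor. *NANS*, which acts after *GNE*, had a log2 fold change of -0.15 (95% confidence interval -1.21 to 0.92), and *CMAS*, which forms CMP-sialic acid, had 0.14 (95% confidence interval -0.36 to 0.63). The last 2 genes were named for their place in the pathway after their values had been seen.

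*SLC35A2*, the UDP-galactose transporter, had the narrowest spread among the 9 SLC35A and SLC35B genes. Its values were 7.02, 6.81 and 6.81 in large pools and 7.22, 7.14 and 7.003 in small pools, so that the groups overlapped by 0.01 through large pool 2 and small pool 7. The log2 fold change was -0.24 (SE 0.11, 95% confidence interval -0.51 to 0.03, adjusted p = 0.35 from limma). The interval includes the median of all genes.
*SLC35A3*, a UDP-N-acetylglucosamine transporter, had 8.76, 8.03 and 8.36 in large pools and 8.06, 7.22 and 8.79 in small pools. The highest and the lowest value of the 6 both belonged to small pools, 7 and 6. The log2 fold change was 0.36 (SE 0.41, 95% confidence interval -0.65 to 1.37), an interval that includes both a decrease and a doubling.
*SLC35A4*, for which CDP-ribitol has been described as a cargo, had 7.46, 6.59 and 6.50 in large pools and 6.78, 8.22 and 6.78 in small pools. Small pool 6 alone stood high, and the other 5 values lay within 1 unit of each other. The log2 fold change was -0.41 (SE 0.47, 95% confidence interval -1.55 to 0.73).
*SLC35A5*, a family member whose cargo is less settled, had 8.97, 9.38 and 9.36 in large pools and 9.94, 7.96 and 8.77 in small pools. The large pools lay closer together than the small pools, which held both the highest and the lowest value. Large minus small was 0.35 on the log2 scale (SE 0.48, 95% confidence interval -0.83 to 1.53). *ATG3*, which overlaps *SLC35A5* on chromosome 3 of GRCh38.p14, had a log2 fold change of 0.51 (unadjusted p = 0.031 from limma), and a part of its signal in that of *SLC35A5* was not tested.

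Small pools varied more than large pools in 8 of the 10 transporter genes, against 47.1% of all genes. The contrast was widest for *SLC35A5*, with an SD of 1.00 in small pools (n = 3) and 0.23 in large pools (n = 3), a ratio of 4.38. In small pools the SD of *SLC35A3*, *SLC35A4* and *SLC35A5* exceeded that of 95.3%, 95.9% and 97.5% of all genes. Small pool 6 was the highest or the lowest of the 6 pools for 5 of the 10 members and small pool 5 for 6, compared with 32.5% and 37.9% of all genes. Without small pool 6 the log2 fold changes of *SLC35A3*, *SLC35A4* and *SLC35A5* changed sign, to -0.04, 0.07 and -0.12. The direction of these 3 differences thus rested on small pool 6. The size of that of *SLC35A5* also depended on small pool 5. Without that pool it was 0.88 (unadjusted p = 0.025 and adjusted p = 0.491 from limma).

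*SLC35B1*, the ATP/ADP exchanger of the endoplasmic reticulum, had 10.38, 9.89 and 10.44 in large pools and 9.72, 9.44 and 10.11 in small pools. Small pool 7 lay above large pool 3, and otherwise large pools were the higher ones. The log2 fold change was 0.48 (SE 0.23, 95% confidence interval -0.07 to 1.03, unadjusted p = 0.078 and adjusted p = 0.35 from limma). Its neighbour on chromosome 17, *SPOP*, which does not overlap it, had a log2 fold change of 0.59 (unadjusted p = 0.0021 and adjusted p = 0.32 from limma).
*SLC35B2* and *SLC35B3* carry PAPS into the Golgi apparatus. *SLC35B2* had 6.83, 6.92 and 6.53 in large pools and 7.04, 6.68 and 6.81 in small pools, values close to the expression floor. Its log2 fold change was -0.09 (SE 0.15, 95% confidence interval -0.45 to 0.28), and it turned to 0.01 when each array's trend with signal level was removed. *SLC35B3* had 7.50, 8.01 and 7.71 in large pools and 7.03, 7.54 and 7.63 in small pools, with 0.34 as the log2 fold change (SE 0.21, 95% confidence interval -0.17 to 0.85).
PAPS itself is made by the synthases *PAPSS1* and *PAPSS2*. *PAPSS1* had 10.37, 10.81 and 10.49 in large pools and 10.35, 10.34 and 10.05 in small pools, a log2 fold change of 0.31 (SE 0.16, adjusted p = 0.36 from limma). *PAPSS2*, named after its values were seen, had 11.70, 11.51 and 11.54 in large pools and 11.40, 11.28 and 11.46 in small pools, a log2 fold change of 0.21 (SE 0.10, adjusted p = 0.37 from limma). For both synthases all large pools lay above all small pools, though by only 0.02 and 0.05. Of the 22 measured genes of nucleotide sugar and PAPS synthesis, 3 lay above and 3 below in this way, against 5.48% and 21.6% of all genes.
*SLC35B4*, which carries UDP-xylose and UDP-N-acetylglucosamine, had 8.93, 9.24 and 8.96 in large pools and 8.61, 9.35 and 9.33 in small pools. Its log2 fold change of -0.05 (SE 0.23, 95% confidence interval -0.61 to 0.50) turned to 0.03 when each array was centred on its median. The large pools lay inside the range of the small pools.

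**Figure D2:**
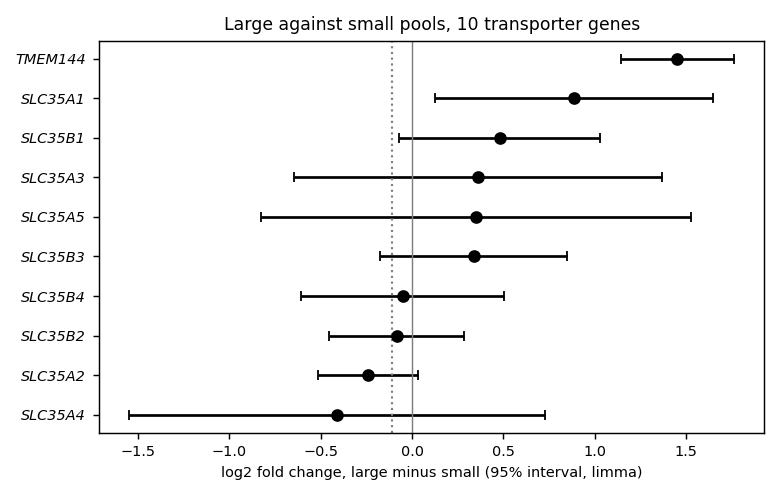
Log2 fold change of large minus small cells (horizontal axis) with 95% confidence intervals from limma for the 10 transporter genes, 3 pools against 3. The solid line marks 0 and the dotted line the median of all genes, -0.11; the intervals of *TMEM144* and *SLC35A1* lie to the right of 0 and the other 8 include 0.

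Of the 10 transporter genes, 6 had a positive and 4 a negative log2 fold change, with a median of 0.34 and a range from -0.41 to 1.45. Without *TMEM144* the median of the remaining 9 was also 0.34. There were 6 positive values when the arrays were quantile normalized again, and 7 when each array was centred or its trend with signal level removed. Without small pool 6 the median was 0.07. With the filter on the expression floor 9 of the 10 members were tested, and with the added filter on variation 5 were.

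**Figure D3:**
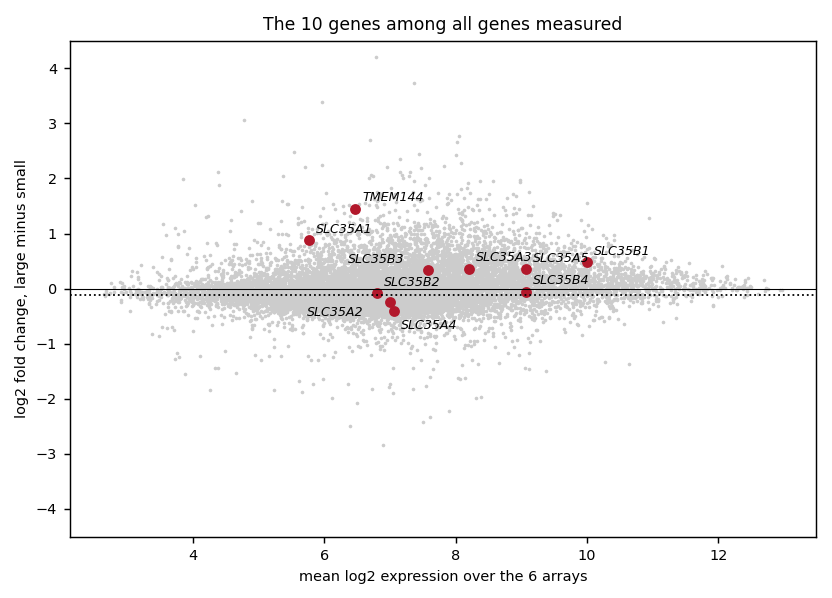
Log2 fold change of large minus small cells (vertical axis) against mean log2 expression over the 6 arrays (horizontal axis) for 18404 genes (grey) and the 10 transporter genes (red, named). The solid line marks 0 and the dotted line the median of all genes, -0.11; *TMEM144* lies above 99.5% of genes and *SLC35A1* above 97.6%, and all 10 lie within the range of fold changes of all genes.

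Of the 19 other SLC35 family members measured, 6 had positive and 13 negative log2 fold changes, with a median of -0.16. Over all genes 66.4% were lower in large cells. By limma 2 higher and 5 lower genes had an unadjusted p under 0.05, against 4.33% and 10.5% of all genes. With adjustment over all genes 0 passed. The smallest p belonged to *SLC35H1*, formerly *SLC35C2*, with 6.95, 7.02 and 6.86 in large pools and 7.396, 7.79 and 7.78 in small pools. Its groups did not overlap, and the log2 fold change was -0.71 (SE 0.14, unadjusted p = 0.0020 and adjusted p = 0.32 from limma). The next were *SLC35D3* with -0.35, *SLC35C1*, the GDP-fucose transporter, with -0.52, and *SLC35F4* with -0.42. *SLC35C1* had 6.29, 6.62 and 6.53 in large pools and 6.93, 7.21 and 6.86 in small pools, so that its values lay below the expression floor in large cells. *SLC35D3* and *SLC35F4* were likewise below it in all large pools. *SLC35F4* had 6.26, 5.96 and 6.26 in large pools and 6.66, 6.46 and 6.63 in small pools, with 1 small pool above the floor. The highest log2 fold change of these members, 0.84, belonged to *SLC35F2*, which came next by p and was named after its values were seen. *SLC35F2*, a plasma membrane member known for taking up the drug YM155, had 7.999, 8.61 and 7.76 in large pools and 7.13, 7.57 and 7.13 in small pools. The median of these members was negative under every scaling tried, from -0.07 to -0.16, the median of all genes being -0.03 to -0.11 in the same settings.

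Enzymes that make nucleotide sugars and PAPS gave 9 positive and 13 negative log2 fold changes among the 22 of 28 listed genes that had a probe set of a single symbol, with a median of -0.13. For comparison, 66.4% of all genes had negative values. By limma 2 genes, *GMPPA* and *GNE*, were lower at an unadjusted p under 0.05, 0 were higher, and 0 passed. Over all genes 10.5% were lower and 4.33% higher at that limit. *GMPPA*, a subunit that controls GDP-mannose synthesis, had 7.56, 7.55 and 7.98 in large pools and 8.22, 8.18 and 8.31 in small pools, a log2 fold change of -0.54 (SE 0.15, adjusted p = 0.32 from limma). *UGP2*, which makes UDP-glucose, had 10.53, 10.66 and 10.66 in large pools and 10.50, 10.05 and 10.42 in small pools, a log2 fold change of 0.29 (SE 0.14, adjusted p = 0.36 from limma). Without large pool 3 the median of this list was 0.05.
Golgi glycosyltransferases, which use the transported donors, gave 14 positive and 19 negative log2 fold changes among 33 of 34 listed genes, with a median of -0.06 that turned to 0.03 when each array was centred. The background of 66.4% negative values over all genes applies here too. By limma 2 higher and 3 lower genes had an unadjusted p under 0.05, against 4.33% and 10.5% of all genes, and 0 passed. The smallest p belonged to *MGAT4B* with -0.38 and *MGAT3* with -0.36, enzymes that add N-acetylglucosamine to N-glycans. *MGAT4B* was below the expression floor in all large pools. Next by p were *ST3GAL6*, a sialyltransferase, with -0.39 and *B4GALT6*, a galactosyltransferase of glycosphingolipids, with 1.19. *B4GALT6* had 7.76, 7.31 and 9.01 in large pools and 6.55, 6.66 and 7.29 in small pools. Its groups were only 0.02 apart. *ST3GAL6* had 5.78, 6.14 and 5.85 in large and 6.16, 6.52 and 6.26 in small pools, all below the expression floor.

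**Figure D4:**
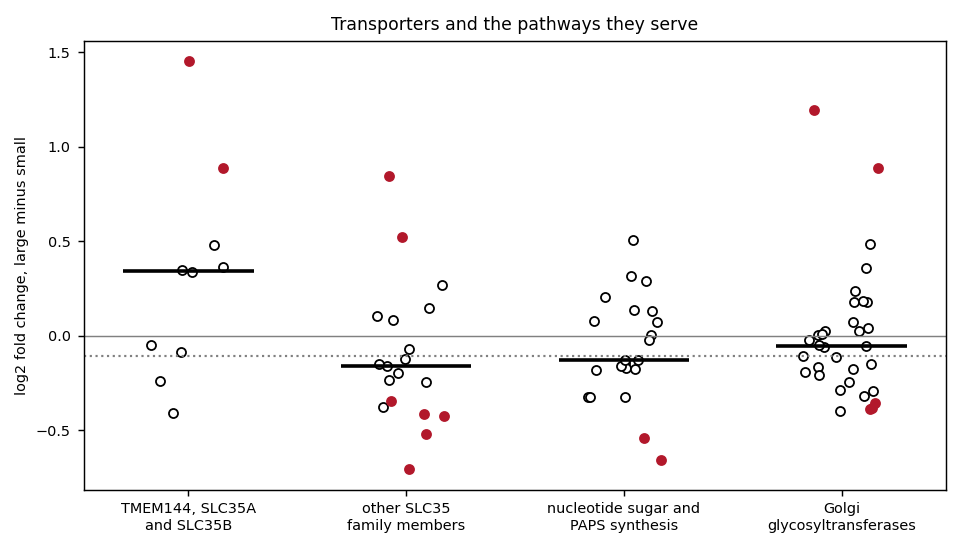
Log2 fold change of large minus small cells (vertical axis) of each measured gene in the 10 transporters, the 19 other SLC35 family members, the 22 genes of nucleotide sugar and PAPS synthesis and the 33 Golgi glycosyltransferases. Filled points have an unadjusted p under 0.05 from limma, thick lines are medians and the dotted line is the median of all genes, -0.11; the medians are 0.34, -0.16, -0.13 and -0.06.

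The labelled cell type was checked by its markers. All 6 chordoma markers, among them brachyury (*TBXT*), were above the expression floor in all 6 arrays, and the median of their log2 fold changes was 0.03. Their summed log2 level was 65.0 to 65.3 in large and 64.3 to 65.2 in small pools. Of 7 fibroblast markers all 7 had negative log2 fold changes, against 66.4% of all genes. None of these markers had an unadjusted p under 0.05 from limma. Their summed log2 level was 48.4 to 49.4 in large and 50.3 to 52.5 in small pools. *LUM* alone ran from 5.91 in large pool 3 to 8.88 in small pool 7. Of the 7, 4 were above the floor in all 6 arrays, with *THY1* and *COL1A1* among them, whereas *DCN* was below it throughout. The 4 leukocyte markers measured summed to 23.1 to 24.99 and 24.0 to 24.3, and the 4 endothelial markers to 24.7 to 25.4 and 25.4 to 25.7 in large and small pools, respectively. *PTPRC* and *PECAM1* were below the floor in all arrays, whereas the endothelial marker *KDR* was above it in all 6 and the leukocyte marker *CD14* in 1 large and 3 small pools. Of these 8 markers *CSF1R* had an unadjusted p under 0.05 (log2 fold change -0.33, adjusted p = 0.323 from limma). The 6 proliferation genes summed to 38.6 to 52.0 in large and 43.8 to 49.4 in small pools, large pool 4 being the highest of the large pools. The part of the fibroblast and proliferation markers in the differences of the transporter genes was not tested. Without large pool 4 *TMEM144* had a log2 fold change of 1.49. That omission keeps large pools 2 and 3, which had the lower proliferation sums, so it is no check on these genes.

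**Figure D5:**
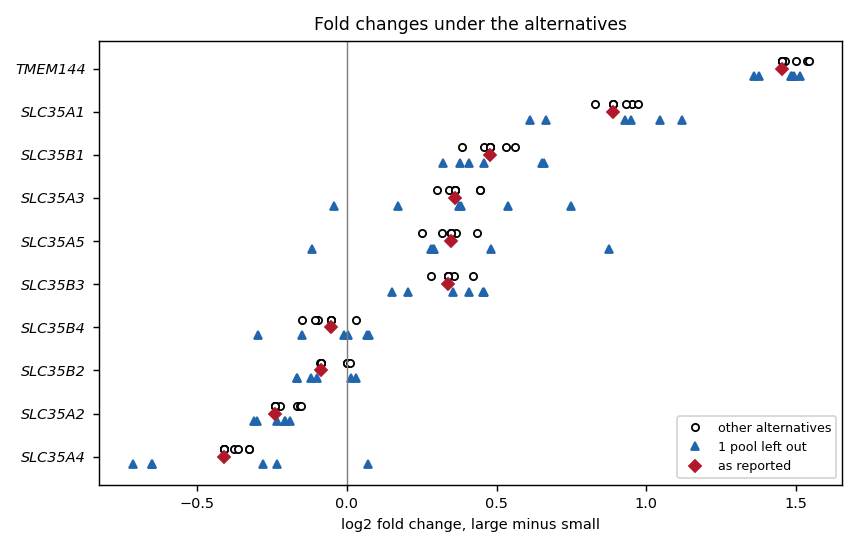
Log2 fold change of large minus small cells (horizontal axis) of the 10 transporter genes as reported (red diamonds), with 1 pool left out (blue triangles) and under the other alternatives (open circles). *TMEM144* stays between 1.36 and 1.54, whereas *SLC35A3*, *SLC35A4*, *SLC35A5*, *SLC35B2* and *SLC35B4* have points on both sides of 0.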

How the data were processed

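Expression was measured in 6 pools of 20 picked MUG-Chor1 cells, of which the sample titles assign 3 to the large and 3 to the small phenotype. The values deposited by the authors are log2 expression for each array after robust multi-array averaging with the affy package. Affymetrix Expression Console appears in the submitters' processing notes, and no source used here names the chip definition. Of 32321 probe sets, 19158 had 1 gene symbol in the platform annotation, which gave 18404 genes at the brightest probe set each; 0 columns were left unused. Large minus small was tested over all these genes with limma 3.58.1 in R 4.3.3, without covariates and with Benjamini-Hochberg adjustment. The methods remove genes without expression or change but give no limits, so such filters were run as alternatives. These were a value above log2(100) in at least 2 arrays, and in addition an interquartile range above 0.5. Further alternatives were another scaling, array weights, a variance trend, the choice of probe set and each pool left out. The test was tested on simulated data with planted changes. The simulated noise was independent for each gene and array, so it is no check on shifts shared by a pool. Precision is limited by the number of arrays.

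The members and the lists were chosen with earlier results of these data known. Named were all members, the 4 genes with the smallest p in each pathway list and the 5 genes closest to *TMEM144*, and exceptions are stated. Promoter windows and neighbours came from RefSeq on GRCh38.p14, in which all 10 members matched. Protein sequences, RT-qPCR and array-CGH data were not analysed here. The RT-qPCR findings for *TMEM144* are cited from the study.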

Additional observations from a re-analysis of the deposited data

How the results depend on the processing

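No gene and no transporter passed in any of the 15 alternatives, the smallest adjusted p from limma being 0.067 over every probe set and 0.092 for *TMEM144*. *TMEM144* kept its direction in all of them, with log2 fold changes of 1.36 to 1.54 and adjusted p from limma of 0.092 to 0.42. So did *SLC35A1* (0.61 to 1.12, in the 13 in which it was tested), and *SLC35A2*, *SLC35B1* and *SLC35B3* wherever they were tested. The number of transporters at an unadjusted p under 0.05 was 1 with the filter on the expression floor and 1 with the added filter on variation (*SLC35A1* was tested in neither), was 3 after centring, and ranged from 1 to 3 when 1 pool was left out. *SLC35B1* was under that limit after centring and without large pool 3 or small pool 7. With either of those pools left out *SLC35A1* was not. *SLC35A2* was under it without large pool 2 and *SLC35A5* without small pool 5. The log2 fold change of *SLC35B4* turned to 0.0319 after centring, and to 0.0028 without large pool 2, 0.0735 without small pool 6 and 0.0671 without small pool 7, over a range of -0.30 to 0.07 with 1 pool left out. That of *SLC35B2* turned to 0.0096 with the trend removed, to 0.0302 without large pool 4 and to 0.0121 without small pool 5, over a range of -0.1664 to 0.0302 with 1 pool left out. For the same omissions *SLC35A3* ran from -0.0426 to 0.7467, *SLC35A4* from -0.7152 to 0.0714 and *SLC35A5* from -0.1168 to 0.8752, each turning without small pool 6. The cause was not tested.
Among genes at an unadjusted p under 0.05, the deposited values gave 797 with higher and 1934 with lower levels in large cells (29.2% higher), against 834 and 1086 after quantile normalization (43.4%), 1207 and 718 after centring (62.7%), and 802 and 1015 with the trend removed (44.1%). With the filter on variation 379 of 4675 probe sets were at that limit, 301 higher and 78 lower, and with the filter on the floor 1757 of 11694 genes. The medians of the pathway lists moved by less than the spread between pools. No paired analysis was possible because the phenotypes share no replicate numbers. With 3 pools against 3, differences of the size of the intervals given could not be resolved.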
